A study of Drosophila melanogaster with 2 samples.

Results

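The 478 peaks described here are the binding sites of Polycomb-like (Pcl) listed on the left arm of chromosome 3 (3L) of Drosophila melanogaster, outside 3 windows. They were chosen by position alone: every peak listed on 3L was taken, except the 30 whose centre lay from 8990000 to 9070000, from 12540000 to 12720000 or from 20590000 to 20720000. They are 94.1% of the 508 peaks of the arm and 19.5% of the 2457 peaks of the whole list (95% exact binomial interval 17.9 to 21.1, counting error only). All positions are on build BDGP5, the Release 5 assembly, and count from 1.

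The list comes from ChIP-seq, in which DNA crosslinked to a protein is precipitated with an antibody and sequenced. Whole embryos of 0 to 8 h after egg laying were fixed without treatment, and chromatin was precipitated with the antibody KW4-Pcl-D2 against Pcl. The ChIP label joins replicates 1, 2 and 3 into one list, and 1 input sample, used as the control, was not analysed here. The protocol names the iso1 (y; bw cn sp) stock or transgenic flies, and the label does not say which were used. An embryo collection of this kind mixes stages and cell types, so a peak does not tell in which cells the protein was bound. Since the replicates share one list without read counts, depth is unknown, no value below has a replicate error, and no difference was tested.

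Pcl is a PHD-finger protein that joins Polycomb repressive complex PRC2, which methylates lysine 27 of histone H3 and so helps to keep developmental genes silent. In flies the Polycomb proteins are known to be brought to DNA at short Polycomb response elements. The methylated domain around such elements can spread over a whole gene or gene complex, and strong targets often hold several elements. Arm 3L is known to carry many genes for developmental transcription factors. Among them are the T-box genes Doc1, Doc2 and Doc3, the Iroquois homeobox genes ara, caup and mirr, and the knirps-family genes kni and knrl. The BTB-domain genes bab1 and bab2, the POU gene vvl and the Sox gene Dichaete (D) are on it too. The gene table used here, RefSeq's for Release 6, places these genes on 3L, but its positions belong to another build. No peak or cluster was therefore assigned to a gene, no sequence was read, and loci are given by position. The windows left out were not matched to genes either, so genes named above may lie inside them. Their naming does not mean that peaks described here lie at them.

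Pcl peaks on 3L were short, scattered over the arm and mostly of low score. The first peak ran from 19801 to 20814 (score 99.2, width 1014 bp) and the last from 22892356 to 22893290 (score 63.7, width 935 bp). Over the 22.5 Mb between them, without the windows, the arm held 21.3 peaks per Mb, and peaks covered 443 kb or 1.97% of that span. Widths ran between 526 and 3292 bp around a median of 831.5 bp, and the middle 50% of peaks were 712 to 1015 bp wide. The score was given to each peak by the peak caller, on a scale that the file does not state, and is used here only to rank, describe and compare peaks within the list. Its median was 74.4, its quartiles were 59.1 and 100, and its highest value was 989.

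A few peaks stood far above the others in score. Of the 478 peaks, 126 (26.4%) scored below 60, close to the lowest value on the arm of 50.05. A further 230 scored from 60 to under 100, and 101 scored from 100 to under 200. Only 21 (4.39%) reached 200, and 3 reached 500. Higher classes were wider: the median width was 703 bp below 60, 821 bp from 60 to 100, 1022 bp from 100 to 200 and 1620 bp from 200 upward. Across the 478 peaks, which share one library and are not independent, Spearman's rho of width and score was 0.70. Because the list ends near a score of 50, the number of peaks follows from where the authors ended it.

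**Figure D1:**
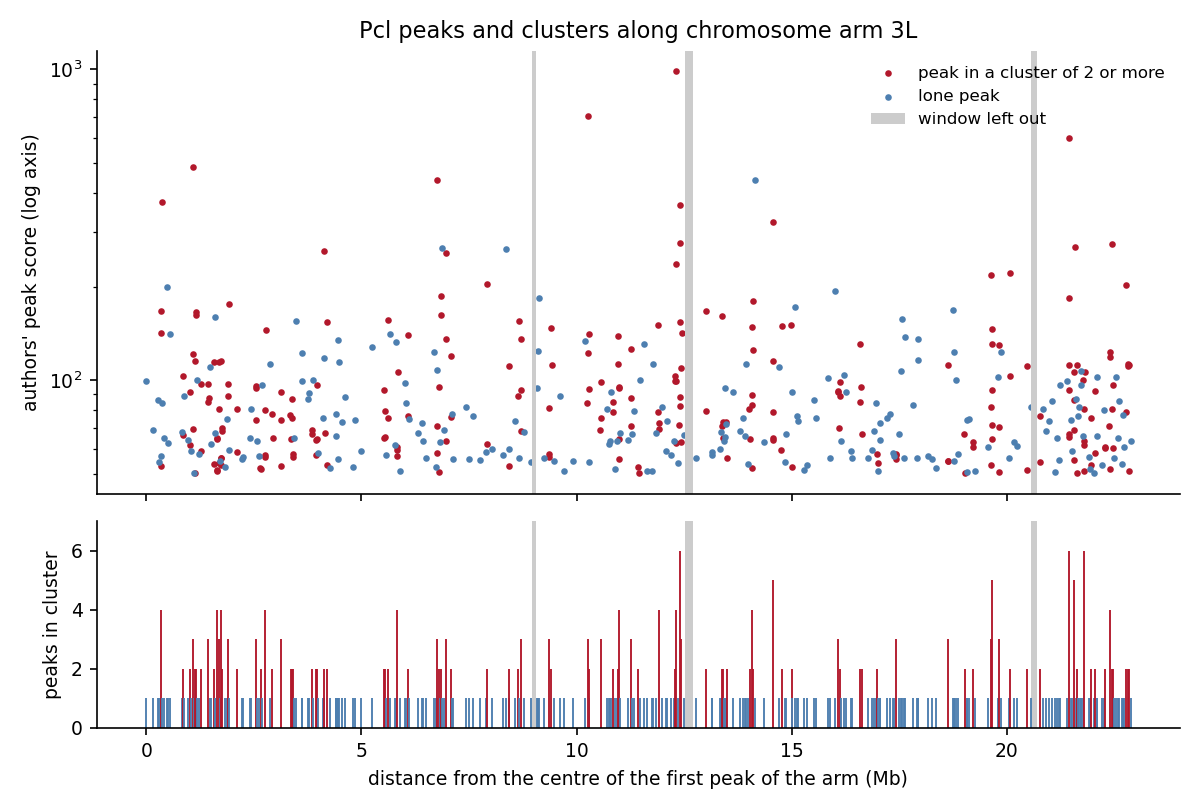
Upper panel: the authors' score of each of the 478 peaks (log axis) against its distance from the first peak of the arm in Mb, in red for peaks that share a cluster and in blue for lone peaks. Lower panel: the number of peaks in each of the 323 clusters; grey bands are the 3 windows left out. High scores are few and spread along the arm, up to 989, while clusters hold at most 6 peaks.

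Outside the windows, density between the first and last peak was uneven and highest towards both ends of that span. Sequence of the arm outside the span was not counted. The windows were not counted either. They held 9 peaks in the second of the 5 parts given next, 17 in the third and 4 in the fifth. With them, the third part would be closer in density to the ends. When the span was divided into 5 equal parts, the first, from the outer end of the arm, held 120 peaks (26.2 per Mb), the second 74 (16.5 per Mb), the third 93 (21.2 per Mb), the fourth 79 (17.3 per Mb) and the fifth, nearest the centromere, 112 (25.2 per Mb). The scores did not follow this order. Their medians lay between 73.8 and 75.3 in all 5 parts, and the highest score of the arm was in the third. The share of peaks that had a neighbour within a cluster was 58.3%, 44.6%, 57.0%, 39.2% and 56.3% in map order. The 2 less dense parts thus had the highest shares of lone peaks. At a fixed gap such a share depends on density, for which it was not adjusted.

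In steps of 1 Mb, without the peaks of the windows, the count ranged from 11 to 44 peaks, with a mean of 20.3 ± 7.82 (SD over 22 steps). The steps are stretches of one arm and not replicates. The last step, cut short by the last peak, was left out. Steps that hold part of a window were not corrected for the sequence left out. The stretch from 1 to 2 Mb held the highest count, 44 peaks in 24 clusters, yet only 1 of them reached a score of 200. Among the peaks outside the windows, the stretch from 21 to 22 Mb followed with 37 peaks in 21 clusters. The stretch from 12 to 13 Mb had 23, but 17 more lay in the window left out there. Second place thus depends on leaving out the windows. The lowest counts, 11 peaks each, were from 7 to 8 Mb and from 18 to 19 Mb. The median score was lowest in the last of these, at 56.98, and highest from 16 to 17 Mb, at 85.1. Between the first and last peak, apart from the windows, the longest stretch without any peak was 298 kb from 19274009 to 19571991. The next were 288 kb from 7155092 to 7442630 and 283 kb from 18366337 to 18649314. A further pair measured 277 kb from 9942608 to 10219810 and 275 kb from 574241 to 849270. Sequence beyond the last peak was not measured, since no genome of this build gave the length of the arm.

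Grouping gave many small clusters and no large one. Peaks with gaps under 10 kb were joined, which left 323 clusters, of which 228 were lone peaks, 60 held 2 peaks, 19 held 3, 10 held 4, 3 held 5 and 3 held 6. In all, 250 peaks (52.3%, 95% exact interval 47.7 to 56.9) shared a cluster with at least 1 other. The 95 clusters of 2 or more peaks had a median length of 7.02 kb, with quartiles of 3.78 and 10.1 kb and a range of 1.43 to 34.2 kb. Peaks covered a median of 34.6% of their length. Length rose with the number of peaks, from a median of 4.73 kb for pairs to 8.13 kb for 3 peaks, 13.6 kb for 4, 16.5 kb for 5 and 24.7 kb for 6. A rise follows from the definition, since each peak joined lengthens its cluster. From centre to centre, neighbours were a median of 24.5 kb apart (quartiles 6.82 and 62.8 kb).

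The gaps between neighbours had no single scale. Of the 474 gaps that did not cross a window, 41 (8.65%) were under 1 kb, 9 of these under 200 bp, and 114 (24.1%) were from 1 to 10 kb. A further 180 (37.97%) lay between 10 and 50 kb, 67 between 50 and 100 kb, and 72 (15.2%) were 100 kb or more. Among the 60 pairs the gap had a median of 2598 bp and ranged from 29 to 9961 bp, and in 16 pairs it was under 1 kb. Whether peaks so close to each other are parts of one bound region was not tested. Joining gaps under 1 kb left 437 peaks.

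At a gap of 10 kb and without the windows, the 6 clusters of at least 5 peaks were all beyond 12.4 Mb, nearer the centromere. This placement depends on both choices. With the windows included, the arm had 8 such clusters, and the window from 8990000 to 9070000 alone held 9 peaks. Named by position, the 6 are described in map order, followed by the 1 further cluster among the 5 longest.

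The first of them ran from 12408326 to 12432981, held 6 peaks in 24.7 kb and was the second longest of the arm. Its scores increased unevenly towards the far end. The first 3 peaks scored 71.8, 82.6 and 88.4 with widths of 842, 865 and 829 bp. The 3 that followed scored 365 at 12424952 to 12426168, 154 at 12428256 to 12429209 and 276 at 12430406 to 12432981. The last of these was the widest of the cluster, at 2576 bp, whereas the highest in score measured 1217 bp. It was the only cluster with a pair of peaks among the 10 highest-scoring of the arm.

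The second, from 14573155 to 14593426, held 5 peaks in 20.3 kb and stood far from any other peak, with 203 kb free before it and 139 kb after it. A single high peak, from 14590750 to 14592301 (score 323, width 1552 bp), was joined to a peak of score 116 across a gap of 133 bp. The other 3 peaks lay 7.20 to 17.8 kb before the high one and scored 64.1, 65.3 and 78.7.

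The third, from 19670919 to 19684600, was the shortest of the 6, with 5 peaks in 13.7 kb, and the most densely covered by peaks, at 37.3%. Its first 4 peaks were separated by 243, 588 and 499 bp and scored 146, 71.6, 131 and 64.7, so high and low values alternated. The fifth, with a score of 92.96, followed after 7245 bp. No peak of this cluster reached 200.

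The fourth, from 21451391 to 21473723, held 6 peaks in 22.3 kb and the highest score of the 6 clusters. Its leading peak, from 21467571 to 21470703, scored 602 and was 3133 bp wide, the second widest of the arm. The peaks formed 2 groups: 3 peaks within the first 4.72 kb, with scores of 92.9, 183 and 66.8, and 3 peaks at the other end, of which the leading one was flanked by scores of 65.6 and 112. A gap of 8666 bp lay between the groups.

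The fifth, from 21576225 to 21592720, began 102.5 kb after the end of the fourth. It held 5 peaks in 16.5 kb, whose scores were 55.3, 86.5, 69.2, 106 and 268 in map order. The highest peak was the last, from 21591153 to 21592720, with a width of 1568 bp.

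The sixth and longest, from 21792972 to 21827218, held 6 peaks over 34.2 kb without any strong one. Its scores were 99.8, 62.0, 80.9, 50.8, 63.9 and 106, and its widths lay between 777 and 1287 bp. Peaks covered 16.4% of its length, the lowest share of the 6, and 4 of its 5 gaps were between 6203 and 7268 bp. Length and number of peaks thus went with no high score here, in contrast to the fourth cluster, which held as many peaks in a shorter stretch.

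The remaining one of the 5 longest clusters ran from 14087811 to 14106899 and held 4 peaks in 19.1 kb. Its scores were 52.2, 148, 83.2 and 89.3, and peaks covered 18.0% of it. In 3 of the 6 clusters of at least 5 peaks the highest peak was an outermost one, and in the other 3 it lay inside.

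**Figure D2:**
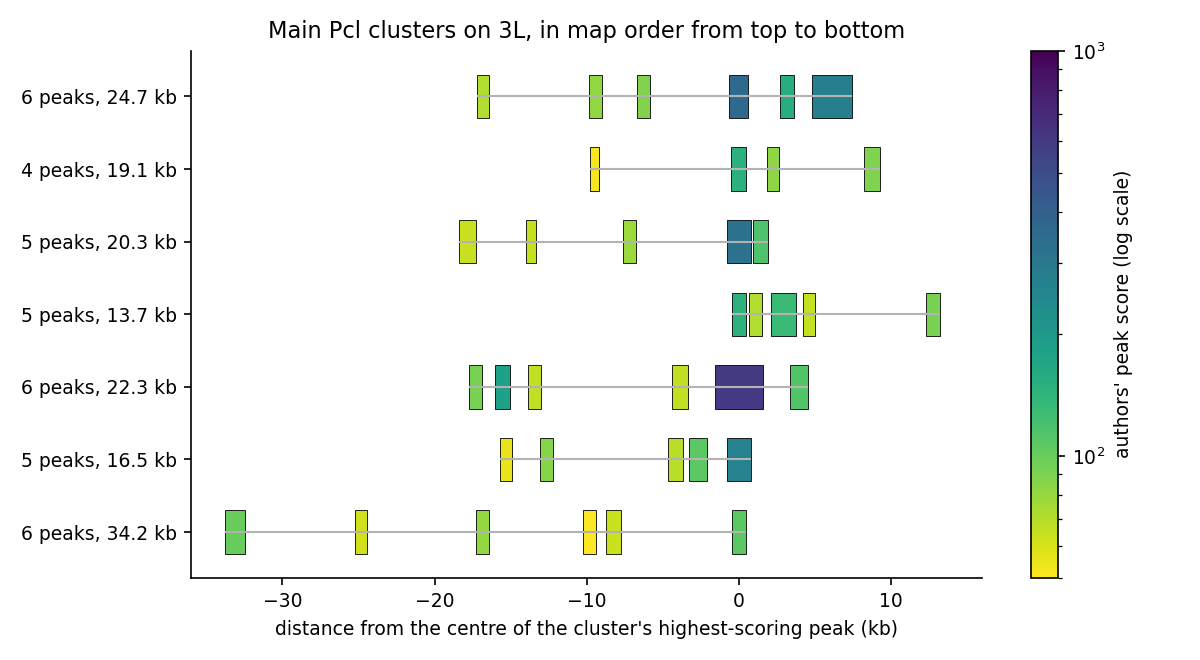
Each row is one of the 7 main clusters in map order; boxes are peaks drawn to scale by width, placed by distance in kb from the highest-scoring peak of the cluster and coloured by the authors' score on a log scale. Some clusters hold 1 or 2 high peaks with weaker peaks to one or both sides, such as the 22.3 kb cluster with its score of 602, while the 34.2 kb cluster holds weak peaks at wide gaps.

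The strongest peaks of the arm were wide, and nearly all had neighbours within 10 kb. Of the 10 highest-scoring peaks, 9 shared a cluster, against 52.3% of all 478, and 8 were also among the 10 widest peaks of the arm. The highest of their own cluster, or alone, were 9 of the 10. This holds for 323 of all 478 peaks, 1 for each cluster or lone peak, and high scores favour it by definition. Their widths ranged from 1217 to 3292 bp, with a median of 2650 bp.

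The peak of highest score, 989, ran from 12321255 to 12323745, measured 2491 bp and ranked 17th in the whole list. It belonged to a cluster of 4 peaks from 12320140 to 12333569. A peak with a score of 237 ended 67 bp before it, and a pair of peaks after it scored 99.6 and 62.7. With the 6-peak cluster that begins at 12408326 it formed part of a wider group: when gaps under 50 kb were joined, 17 peaks in 6 clusters formed one group from 12285176 to 12459491, and 4 of them reached 200. That group was 174 kb long, and its last peak ended before the window that begins at 12540000.

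The second highest, from 10281854 to 10285145, scored 709 and was the widest peak of the arm, at 3292 bp. Both of the other peaks of its cluster lay before it, with scores of 84.5 and 122. The third is the leading peak of the 22.3 kb cluster. The fourth, from 1099021 to 1102034, scored 486 at a width of 3014 bp, and the peaks after it scored 69.8 and 121.

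The fifth, from 6783503 to 6786225, scored 441 and was 2723 bp wide. A peak with a score of 71.2 ended 64 bp before it, and one with a score of 58.1 lay 2803 bp before that one. The sixth, from 14169069 to 14171423, had nearly the same score, 441.3, and a width of 2355 bp, but stood alone. Its nearest neighbours were 42.7 kb before it and 198 kb after it. The seventh, from 376156 to 378900, scored 375 at a width of 2745 bp and was the last of 4 peaks within 11.1 kb, the others scoring 142, 167 and 52.9. Peaks covered 56.1% of that cluster, which ran from 367829 to 378900. The eighth to the tenth belong to the clusters that begin at 12408326 and 14573155.

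Strong lone peaks were few. After the lone peak with a score of 441.3, the next in score were at 6896666 to 6897765 (265, width 1100 bp), 8382138 to 8383858 (264.95, width 1721 bp), 505634 to 506499 (199, width 866 bp) and 16022196 to 16024367 (194, width 2172 bp). Of the 21 peaks that reached 200, 18 shared a cluster and 3 were alone, so the share of clustered peaks was 85.7% there, against 59.4% for scores of 100 to 200, 51.7% for 60 to 100 and 42.1% below 60. A peak counts as lone when no neighbour passed the authors' threshold, which depends on the score of the neighbour as well.

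Clustered peaks scored higher than lone ones in their medians. The 250 clustered peaks had a median score of 80.6 (quartiles 63.1 and 112) and the 228 lone peaks one of 67.9 (57.4 and 91.3). The median widths were 865 bp for clustered peaks and 789 bp for lone peaks. Within clusters of 2 or more, the highest peak of each had a median of 112, and the other 155 peaks had a median of 68.4. Both values follow in part from the choice, since the highest value of each cluster was moved from the one set to the other. The first peak of each cluster in map order, which is not chosen by score, had a median of 77.8 and a median width of 865 bp (95 clusters).

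**Figure D3:**
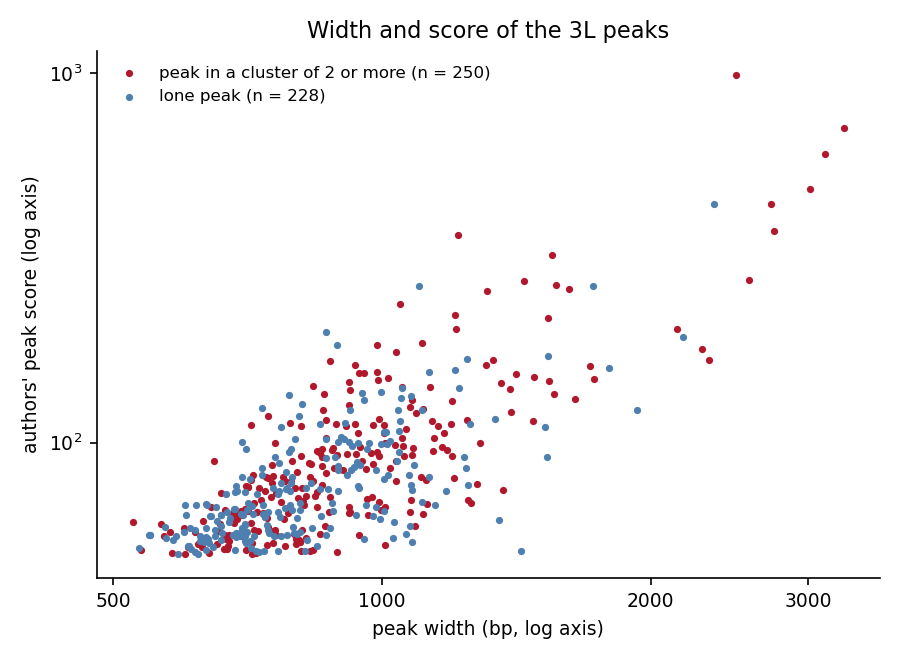
Width in bp and the authors' score of each 3L peak, both on log axes, with 250 clustered peaks in red and 228 lone peaks in blue. Both kinds fill the same range below a score of 200, and of the 21 peaks above it 18 are clustered.

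Populous stretches differed in their highest scores. From 1595080 to 1788983, 18 peaks in 8 clusters lay within 194 kb when gaps under 50 kb were joined, with a median score of 64.8 and a highest score of 160. It included a pair of clusters of 4 peaks, from 1655132 to 1663876 with scores of 51.2 to 65.1, and from 1751041 to 1759939 with scores of 53.5 to 115. The largest group at that gap ran from 21415302 to 21827218, held 28 peaks in 13 clusters over 412 kb and included 3 of the 6 clusters of at least 5 peaks. Its median score was 84.2, and 2 of its peaks reached 200, with scores of 602 and 268. At a gap of 50 kb the whole arm fell into 143 groups, so groups of this size depend on the gap chosen.

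The peaks that bordered on the windows left out all scored below 100, as did most peaks of the arm. Of the 478 peaks, 122 (25.5%) reached 100. The first window held 9 peaks, the second 17 and the third 4, with highest scores of 259, 303 and 224. The nearest peaks outside were at 8949858 to 8950569 (score 54.4) and 9089648 to 9090435 (94.4), at 12509598 to 12510376 (66.6) and 12806303 to 12807085 (56.2), and at 20581527 to 20582541 (81.7) and 20783140 to 20783946 (54.7). All but 1 were at least 34.0 kb from the nearest peak inside. The exception, which ends at 20582541, lay 9.22 kb from a peak of the third window. It is counted here as a lone peak only because that window was left out. The 41 peaks of at least 1300 bp on the arm (8.58%, against 12.05% in the whole list) had a median score of 167. Of them 30 were clustered, against 250 of all 478 peaks. Wide and narrow peaks were not compared at equal score.

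Beside the other large arms, 3L had the smallest count of peaks in its most populated cluster, 6, against 7 on 2L, 17 on 2R, 107 on 3R and 7 on X. Clusters of at least 5 peaks numbered 6 on 3L, against 3 on 2L, 13 on 2R, 20 on 3R and 6 on X. Of its peaks 52.3% shared a cluster. On 2L the share was 51.8% (95% exact interval 46.7 to 56.9) and on X 54.2% (46.8 to 61.4), whereas 2R had 63.3% (59.1 to 67.4) and 3R had 65.2% (61.8 to 68.6). Density differed as well, with 21.3 peaks per Mb of span on 3L, 17.8 on 2L, 27.7 on 2R, 28.5 on 3R and 9.14 on X. The shares use a fixed gap and were not adjusted for density. A score of 200 was reached by 4.39% of the 3L peaks (2.74 to 6.64). For 2L this share was 5.15% (3.18 to 7.85) and for 2R 4.10% (2.58 to 6.14). It was 10.5% for 3R (8.44 to 12.8), and X had 19 such peaks among 190 (interval 6.13 to 15.2%). The intervals treat peaks as independent, which neighbours are not, and the differences between arms were not tested. Windows were left out on 3L only. With them included, 54.3% of the 508 peaks shared a cluster and 4.72% reached 200. Clusters of at least 5 peaks then numbered 8, and the most populated cluster still held 6. In median score the arms were close, with 74.4 for 3L against 71.3 to 73.9 for the others. The median width of 831.5 bp on 3L compared with 834 bp for 2L, 846 bp for 2R, 845 bp for 3R and 768 bp for X.

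**Figure D4:**
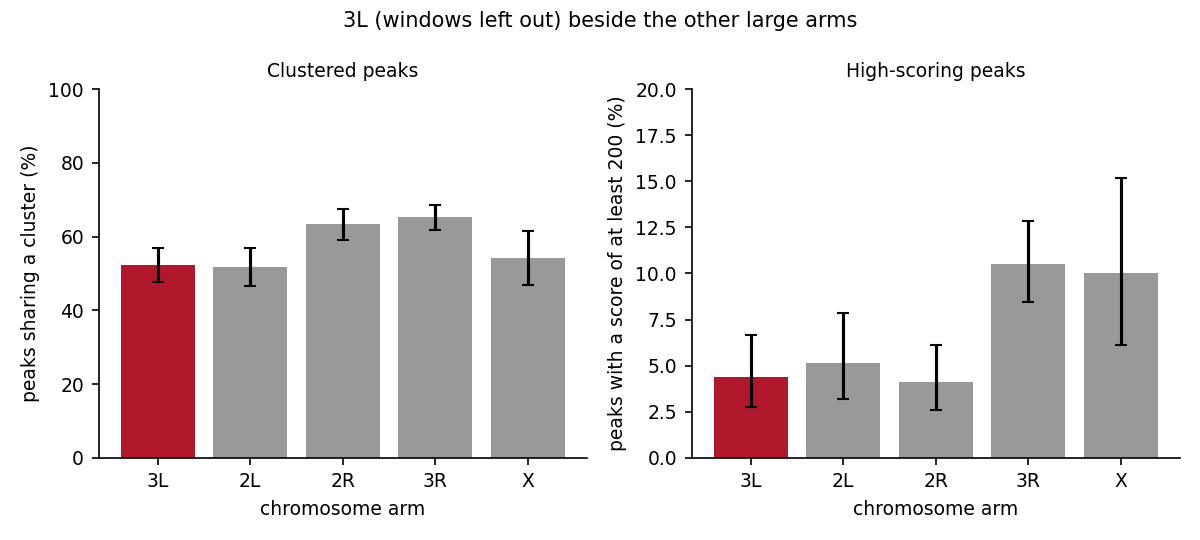
Left: the share of peaks that have another peak of their cluster within gaps under 10 kb. Right: the share of peaks that score 200 or more. Bars are arms, 3L in red, and error bars are 95% exact binomial intervals for counting error only. For 3L both shares, 52.3% and 4.39%, lie near those of 2L.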

How the data were processed

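One deposited peak list for the Pcl ChIP group was used. The labels give 1 ChIP sample, whose title joins 3 replicates, and 1 input sample, not analysed here. Per the submitters' processing notes, Bowtie and build BDGP5 were used, and per the file headers peaks were called with MACS. For versions, settings and the way replicates were combined, nothing is stated in those sources. The deposited score of each peak is the authors' value on an unstated scale. Read counts and depth are not known from the list, so no replicate error or test could be given.

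Positions were counted from 1. Peaks on 3L were kept unless their centre, the mean of the listed start and end, lay in a window. The windows add up to 390 kb, which was taken off the span, and 3 distances that cross a window were left out. Peaks with gaps under 10 kb formed a cluster. The exact intervals are Clopper-Pearson for shares and from ordered values for medians, both at 95%. The clustering code was checked on simulated lists built with the same gap of 10 kb, and all clusters were recovered in 50 of 50 lists. Such a check covers the code only and does not bear on the clusters of the arm. Python 3.11.15, pandas 2.3.3 and scipy 1.17.1 were used.

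The regions named are every cluster of at least 5 peaks, the 5 longest clusters, the 10 highest-scoring and 5 widest peaks, the 5 highest-scoring lone peaks, the first and last peak, and those beside each window. Other 4-peak clusters and the groups at a gap of 50 kb were named after their values were seen. The members and rules were chosen with earlier results of these data known. Alternatives were cluster gaps of 1, 5, 20 and 50 kb, the whole arm, the 1228 highest-scoring peaks of the list, a score minimum of 100, prior joining of gaps under 1 kb, and omission of the longest 6-peak cluster. Genes were not assigned to peaks, since the gene table used here is of another build.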

Additional observations from a re-analysis of the deposited data

How the results depend on the processing

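Of 61 recomputed values, 32 stayed within 1.5 times for counts and densities or within the exact interval for shares and medians, and 29 moved. The cluster gap moved the share of clustered peaks to 16.1% at 1 kb, 39.96% at 5 kb, 67.8% at 20 kb and 87.2% at 50 kb. Clusters of at least 5 peaks numbered 0 at 1 kb, 0 at 5 kb, 17 at 20 kb and 33 at 50 kb, so the 6 clusters of that size belong to a gap of 10 kb. At 50 kb there were 143 clusters, the most populated with 28 peaks. Prior joining of gaps under 1 kb gave a share of 43.9% and 3 clusters of at least 5 peaks. Among the 1228 highest-scoring peaks of the list, 3L had 245 peaks (10.9 per Mb) in 187 clusters, a clustered share of 42.0%, 1 cluster of at least 5 peaks, a median width of 972 bp, a median score of 99.8 and a median neighbour distance of 49.1 kb. With a score minimum of 100 it had 122 peaks (5.52 per Mb) in 102 clusters, a clustered share of 31.1%, at most 3 peaks in a cluster and 0 clusters of at least 5, a median width of 1071 bp, a median score of 135 and a median neighbour distance of 81.1 kb. Both follow from keeping fewer, higher and wider peaks. Including the windows, or leaving out the longest 6-peak cluster, moved none of the 9 values beyond these bounds. Replicates could not be left out, since the list combines them. No paired analysis was possible because the only list joins the replicates. Without read counts, sequence below the authors' threshold cannot be told from unbound sequence.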
